A study of Apis mellifera with 13 samples.

Results

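The odorant receptor (Or) family was described in the antennal flagella of honey bee workers, *Apis mellifera*. Members were all genes whose symbol is Or followed by digits and at most 1 letter, which gave 53 of the 13414 genes in the deposited tables. Of these, 50 passed the filter on low values in both tables, while Or58, Or131 and Or148 were at 0 in all 13 libraries. The symbol rule does not take in receptor genes listed under a locus name only, nor Or symbols with a longer suffix, such as Or77PAR and Or167PAR.

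VSH libraries came from marked workers that opened, enlarged or emptied brood cells infested by the mite *Varroa destructor*, and NVS libraries from marked workers of the same observation hive that were never seen at these tasks. Both were hybrid *ligustica* and *carnica* bees that emerged from a colony selected for this behaviour. The mean age was 7.5, 9.75, 12.5 and 17 days in VSH1 to VSH4 and 7.5, 9.5, 12.25 and 17.5 days in NVS1 to NVS4. Foragers (FOR, n = 2) returned to standard hives with pollen, nurses (NUR, n = 3) were caught while tending larvae in open brood cells, and the labels give the age of both as unknown, so that task and age cannot be told apart. Each library pooled the antennae of several bees, 4 pairs by the labels, and p-values therefore measure the spread between pools.

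Insect odorant receptors are membrane proteins of the olfactory neurons housed in antennal sensilla. Each neuron usually makes a tuning receptor, which binds odours, together with a shared co-receptor, Orco, and the pair forms an ion channel opened by the odour. In honey bees the co-receptor is Or2. The family is large in bees compared with flies, and many of its genes lie side by side on the chromosome. Bees use these receptors to detect queen, brood and alarm pheromones as well as floral scents. Among the members with known roles, Or11 responds to the main queen substance, 9-oxo-2-decenoic acid, and Or10, Or11, Or18 and Or170 are known for higher expression in drone than in worker antennae. The ligands of most other members are not known, so no role is given for them below.

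Values are pseudo-counts, that is, read counts per gene that the authors scaled to a common library size in each table. They are not divided by gene length. Columns summed to 1.92e+07 to 2.03e+07 in the VSH and NVS table and to 3.36e+07 to 3.47e+07 in the FOR and NUR table, sums that do not show sequencing depth. Levels were not compared between the tables, which were normalised apart. NUR2 stood apart from the other libraries on the first principal component of all genes (46.4, with 1.25 in NUR1 and 0.442 in NUR3), and VSH4 had a summed muscle marker level of 1844, against 145 to 253 in the other 7 VSH and NVS libraries. Its summed fat body marker level was 4756, against 1491 to 1858 in the other VSH libraries and 1117 to 1482 in the NVS libraries. The co-receptor of the olfactory neurons was measured in every library and was the member with the highest value in each. This rank within the family does not check the purity of the tissue. Of 5 photoreceptor markers Uvop was at 0 in all libraries, but Blop was at 48.3 to 208 in each of them, and the list summed to 63.0 to 161 in the VSH and NVS libraries.

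The co-receptor Or2 had the highest value of the family, with 10484, 11190, 9550 and 13125 in VSH1 to VSH4 and 10645, 9307, 9239 and 9727 in NVS1 to NVS4. In the other table it was at 16444 and 21394 in FOR2 and FOR3 and at 17857, 13320 and 15403 in NUR1 to NUR3. Or2 alone made up 31.2% to 37.4% of the summed values of the members in VSH and NVS libraries and 31.9% to 38.2% in FOR and NUR libraries. No other member came near its deposited value.

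The 10 highest members over the 8 VSH and NVS libraries were Or2, Or12 (1901 ± 131, mean ± SD, n = 8), Or109 (1804 ± 143), Or63 (1428 ± 148), Or18 (1337 ± 130), Or19 (1124 ± 304), Or30 (1039 ± 82.2), Or4 (873 ± 78.9), Or11 (869 ± 84.7) and Or25 (831 ± 60.1). The queen substance receptor Or11 was thus 9th, and Or18 was 5th. The remaining 40 measured members ranged from 649 for Or160 to 27.8 for Or17, with Or170 at 316 (22nd) and Or10 at 98.0 (44th). In that order 8 of 49 neighbouring pairs differed by more than their pooled SD on the log2 scale, namely Or2 and Or12, Or109 and Or63, Or30 and Or4, Or25 and Or160, Or105 and Or14, Or170 and Or141, Or32 and Or10, and Or3 and Or17. The other 41 pairs did not, so that most ranks in the middle of the family are exchangeable with those beside them.

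**Figure D1:**
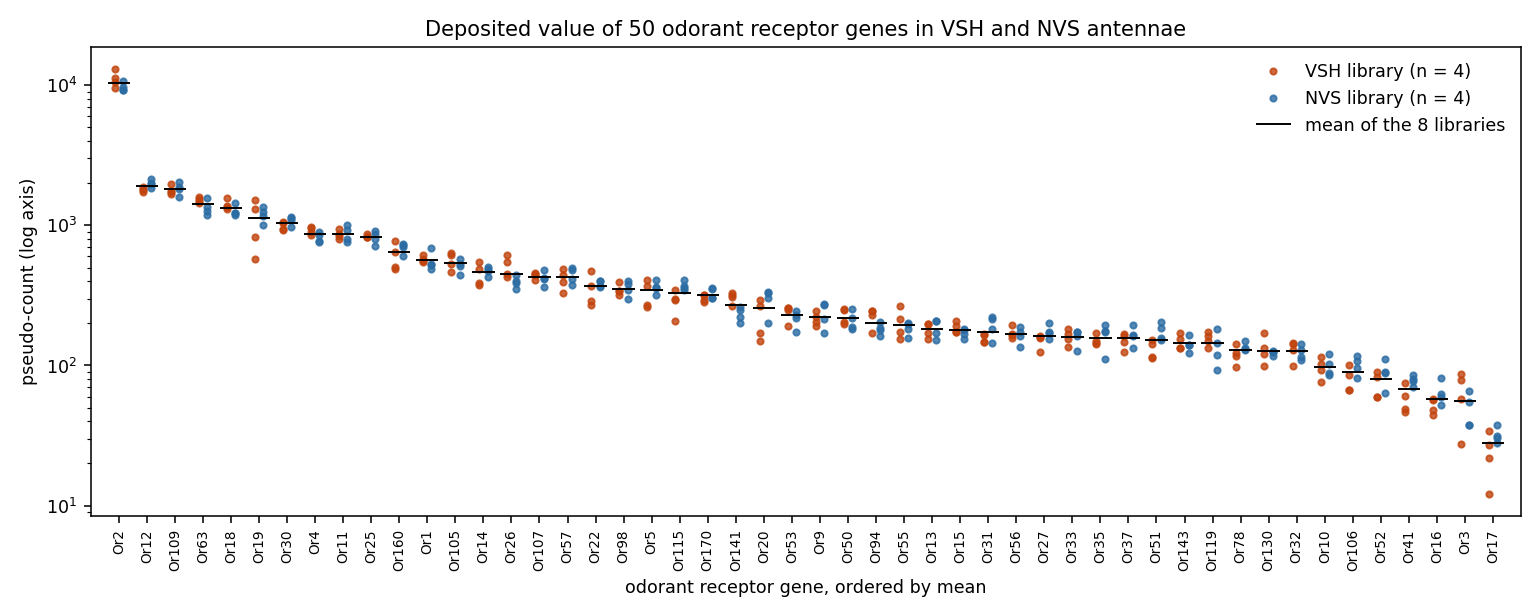
Pseudo-count (log axis) of the 50 measured odorant receptor genes in each of 4 VSH and 4 NVS libraries, ordered by their mean, with a bar at the mean of the 8 libraries. Or2 lies near 10408 and the other members between 27.8 and 1901, and the groups overlap for 48 of the 50 members.

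Longer genes collect more reads, and so the order changed when values were divided by the length of the gene, introns included, which was known for 47 measured members. Or12 was then the highest at 1151 per kb, followed by Or18 (733 per kb), Or19 (715 per kb), Or109 (624 per kb), Or4 (472 per kb), Or11 (468 per kb) and Or2 (411 per kb). Of the 10 highest members, 8 were the same on both scales. Gene length with introns is a poor stand-in for transcript length, and a rank of transcript amount was not obtained.

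The order of the members in foragers and nurses was close to that of VSH and NVS bees, with 9 of the 10 highest members shared. Or19 was the exception among the highest, at rank 6 in VSH and NVS libraries and at rank 18 in FOR and NUR libraries, where it had a mean value of 577. Its neighbour on the chromosome, Or20, went from rank 24 to rank 44. In the other direction, Or3 went from rank 49 to rank 40 and Or35 from rank 36 to rank 29. Ranks are set within each table, but differences between the tables in bees, age or sequencing cannot be told apart from a difference of task.

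The members varied between pools by more than the median gene, although levels were not matched gene by gene. The median SD within groups, on the log2 scale, was 0.20 for the 49 members with a mean of at least 50 in the VSH and NVS table, against 0.13 for all 8133 such genes, and 0.27 against 0.17 over 8625 genes in the FOR and NUR table. Or12 varied least among VSH and NVS libraries (SD 0.07 on the log2 scale), and Or3 (0.59), Or19 (0.46) and Or17 (0.45) varied most.

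Most of the members lie in a single tandem run. By the order of genes in the reference annotation, 34 of the 49 members placed on it formed 1 run from Or1 to Or58, in which at most 10 other genes separated successive members. A further 4 members lay in 2 pairs, Or105 with Or98 and Or107 with Or109, and 11 had no other member beside them, among them Or2, Or63, Or141 and Or160. Reads that align to more than 1 place were not counted by the authors, so values of similar copies within the run may be too low.

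Neighbours in the run deviated together somewhat more than other pairs. Over the 8 VSH and NVS libraries, 20 of 24 adjacent pairs had a positive correlation of their deviations from the group means, with a median r of 0.30. The median r was 0.18 for the other 504 pairs of the run, of which 326 were positive. It was 0.17 for the remaining 553 pairs, in which at least 1 gene lies outside it, with 357 positive. These values describe 8 shared libraries and carry no test, and adjacent genes outside the family were not compared. Or19 and Or20, which are adjacent, had an r of 0.87, but the most alike pair was Or160 and Or14 (r = 0.97), which do not lie in the same run.

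The first comparison asked whether bees that perform VSH tasks differ in antennal receptor expression from bees that do not. No member passed an adjusted p of 0.05 (limma, Benjamini-Hochberg over 10204 genes), in a comparison where 0.0392% of all genes were higher in VSH bees and 0% lower. At an unadjusted p under 0.05, 2 members were higher (Or141, Or26) and 3 lower (Or115, Or51, Or41) in VSH bees, while 5.73% and 5.43% of all genes were. The estimate was positive for 22 of 50 members and for 49.4% of all genes, with a median log2 difference of -0.04 over the members and -0.002 over all genes. The summed value of the members was 31633 ± 2337 in VSH libraries and 30525 ± 1456 in NVS libraries (SD, n = 4 each), with VSH4 the highest at 35126. The median 95% interval of a member reached 0.31 to either side, wider than that of Or12 (-0.28 to 0.002) and narrower than that of Or3 (-0.46 to 1.01).

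Or141 had the smallest p of the family. Its values were 316, 307, 265 and 327 in VSH1 to VSH4 and 223, 262, 202 and 250.1 in NVS1 to NVS4. All 4 VSH libraries were above all 4 NVS libraries, as was the case for 2.86% of all genes, with the closest values at 265 and 262. The log2 difference was 0.38 (95% interval 0.12 to 0.64, adjusted p = 0.295 in limma). The deviations of libraries with the same number were correlated, and with the number as a block the adjusted p of Or141 in limma was 0.107.

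Or26 was the other member higher at an unadjusted p under 0.05. It was at 613, 543, 427 and 449 in VSH1 to VSH4 and at 385, 402, 352 and 444 in NVS1 to NVS4. The groups overlapped at VSH3, and the excess lay mostly in VSH1 and VSH2, the younger VSH bees. The log2 difference was 0.35 (adjusted p = 0.335 in limma).

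Of the 3 members with lower estimates in VSH bees at an unadjusted p under 0.05, 1 did not overlap between the groups. Or51 was at 115, 113, 153 and 143 in VSH1 to VSH4 and at 205, 153, 185 and 158 in NVS1 to NVS4. This lack of overlap was seen for 3.26% of all genes, although VSH3 at 152.7 and NVS2 at 152.9 were nearly equal. Its log2 difference was -0.42 (95% interval -0.76 to -0.08, adjusted p = 0.354 in limma). Or115 (-0.39, adjusted p = 0.344 in limma) was lowest in VSH1 at 207 and highest in NVS1 at 407. Or41 (-0.45, adjusted p = 0.429 in limma) was at 46.9 to 75.1 in VSH libraries and at 69.8 to 85.1 in NVS libraries, low values at which single pools weigh more.

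The co-receptor Or2 had an estimate of 0.18 on the log2 scale (95% interval -0.02 to 0.38, adjusted p = 0.487 in limma). Its mean was 11087 ± 1516 in VSH and 9729 ± 647 in NVS bees, with overlapping groups. The highest value was that of VSH4, without which the estimate was 0.10. Or63 (0.18) and Or4 (0.17) also had positive estimates and Or12 a negative one (-0.14), each with an interval that included 0. The queen substance receptor Or11 was at 797, 867, 942 and 841 in VSH1 to VSH4 and at 1008, 931, 764 and 800.1 in NVS1 to NVS4. These ranges coincide nearly entirely, and the estimate was -0.02 (95% interval -0.23 to 0.19). The other drone-biased receptors had estimates of 0.15 for Or18, -0.04 for Or10 and -0.12 for Or170, all with adjusted p over the threshold (0.515, 0.953 and 0.702 in limma). The signs of Or11 and Or10 changed when single libraries were left out, at most to 0.05 for Or11 without NVS1 and to 0.07 for Or10 without VSH3.

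The counts at an unadjusted p were not stable. In place of 5 members (11.2% of all genes were at an unadjusted p under 0.05 in the same fit), they came to 2 without VSH1 (10.3% of all genes), to 9 without VSH3 (14.1%), to 8 without VSH4 (8.8%) and to 8 without NVS1 (10.9%). With the replicate number as a block, 5 members were higher (Or141, Or26, Or63, Or4 and Or2) and 4 lower (Or20, Or115, Or51 and Or41) at an unadjusted p under 0.05, where 9.08% and 8% of all genes were, and still no member was called, although 0.853% of all genes were then higher and 0.392% lower past the threshold. Or20 was lower in the VSH library of all 4 pairs with the same replicate number, at 149.7 and 202, 171 and 327, 265 and 305, and 294 and 334 in VSH and NVS. Its log2 difference was -0.44 (adjusted p = 0.484 in limma, 0.146 with the block). Or4 was higher in the VSH library of all 4 pairs (adjusted p = 0.466 in limma, 0.224 with the block). Or26 and Or141 were also higher in all 4 pairs, and Or30, Or41, Or51, Or52, Or106, Or115 and Or170 were lower in all 4. The share of all genes with the same direction in all 4 pairs was not obtained, so this does not set Or20 or Or4 apart.

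Marker lists of cell types were compared between VSH and NVS libraries as well. Estimates were positive for 5 of 5 fat body markers (median 1.68), 5 of 5 haemocyte markers (median 0.30), 7 of 7 muscle markers (median 1.48) and 11 of 13 genes of the neuron list (median 0.12). They were positive for 1 of 3 tested photoreceptor markers (median -0.18) and 2 of 2 glia markers (median 0.04). Of the olfactory sensilla markers (Or2, Obp1, Obp2, CSP1 and CSP3), 3 of 5 were positive (median 0.05). No gene of these lists was past the threshold. Every VSH library had a higher fat body sum than every NVS library. Haemocyte markers summed to 1418 to 2022 in VSH and 1084 to 1582 in NVS libraries, and the neuron list to 23160 to 27362 and 22122 to 25703. Without VSH4, the fat body (5 of 5, median 0.87, 4 at an unadjusted p under 0.05), haemocyte (5 of 5, median 0.34, 3 at that p) and neuron estimates (9 of 13, median 0.10) were mostly positive, and the muscle median was 0.15. In the odorant receptor family, 18 estimates were positive without VSH4 (48.5% of all genes) and the median was -0.07. The part of these cells in the receptor values was not tested.

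**Figure D2:**
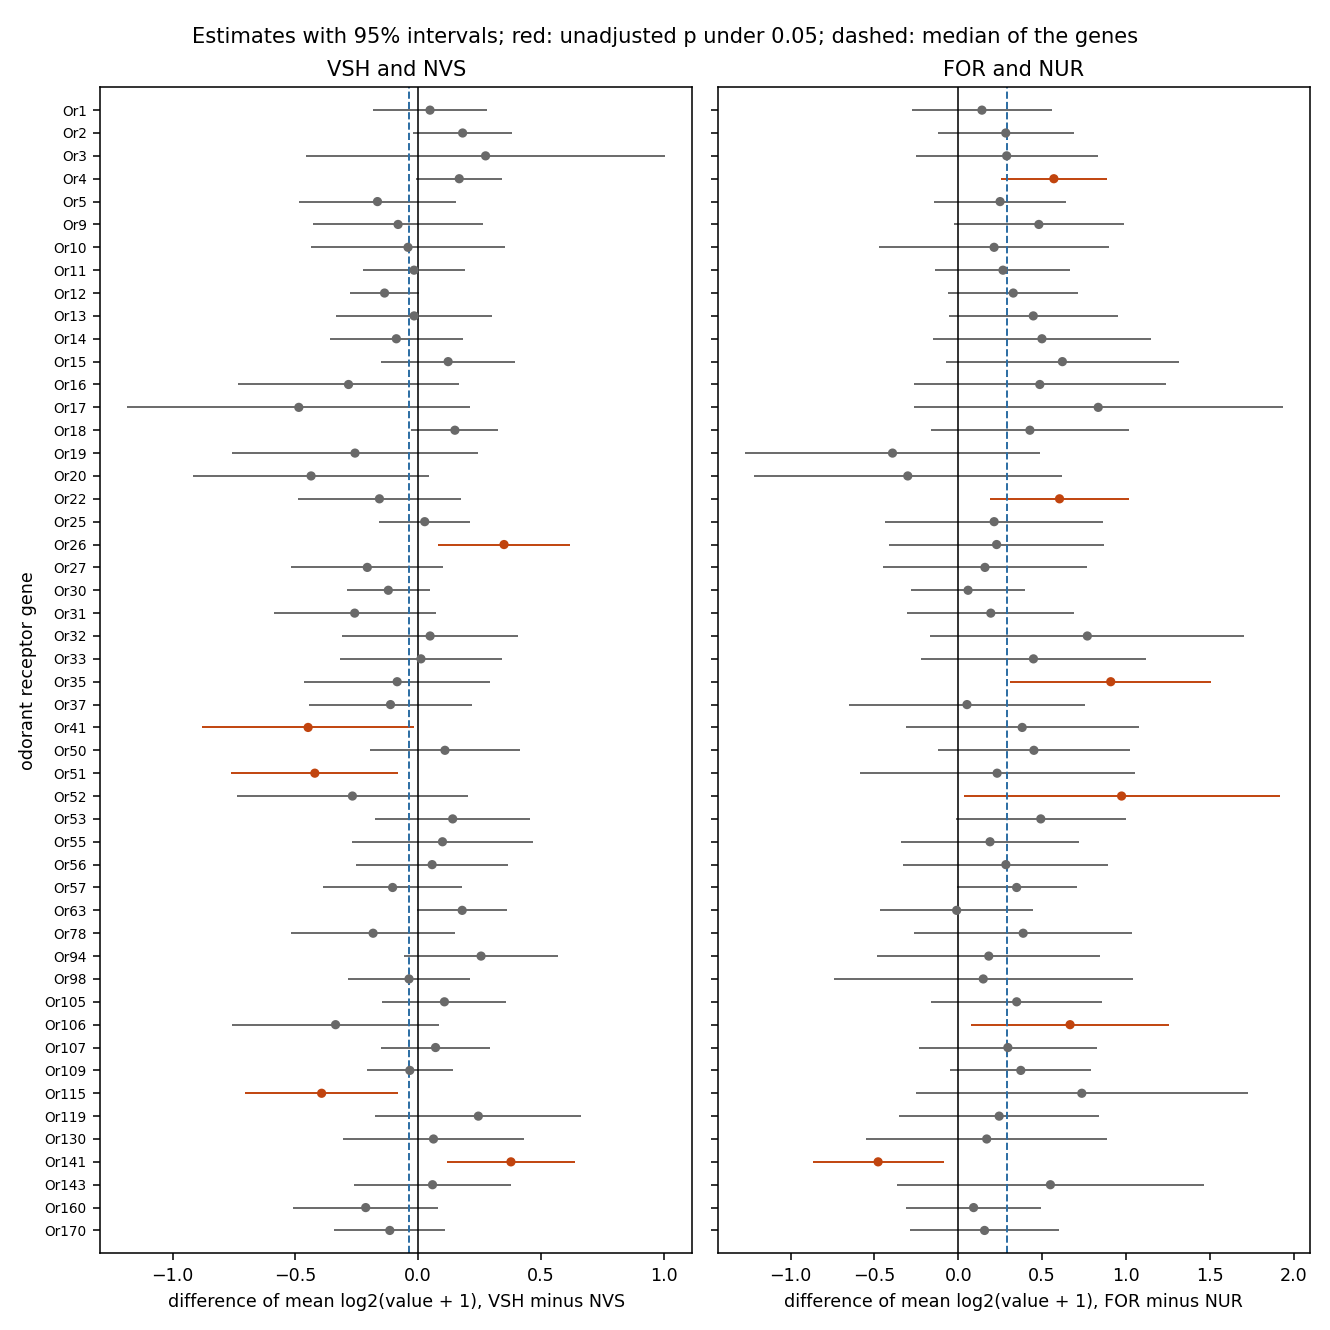
Difference of mean log2(value + 1) of each of the 50 measured members, with its 95% interval, for VSH minus NVS (left, 4 and 4 libraries) and FOR minus NUR (right, 2 and 3 libraries); red marks an unadjusted p under 0.05 and the dashed line the median of the members. The median lies at -0.04 on the left and at 0.29 on the right, where 46 of 50 estimates are positive, and no member passed an adjusted p of 0.05 in either panel.

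Mean age was known for the VSH and NVS libraries, and the slope of log2 values per day of age was estimated with the group as a term. No member passed the threshold, in a fit where 0.108% of all genes rose and 0.0392% fell with age (limma, adjusted p under 0.05). At an unadjusted p under 0.05, 6 members had a positive slope (Or20, Or5, Or22, Or19, Or109 and Or143) and 0 a negative one, where 7% and 5.27% of all genes did. Slopes were positive for 32 of 50 members and for 51.2% of all genes, but for 23 members with quantile scaling, so the balance of signs depended on the scale. Rescaling columns to the same geometric mean of the members gave 22, but it sets the mean slope of the members near 0 by construction. Without VSH4, the oldest VSH library, 20 slopes were positive and 2 members, both among the 6, were at an unadjusted p under 0.05, as 10.2% of all genes were. Without VSH1 there were 3 (9.85% of all genes), against 12.3% of all genes with all libraries.

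Or20 had the steepest slope of the family. It was at 149.7, 171, 265 and 294 in VSH1 to VSH4 and at 202, 327, 305 and 334 in NVS1 to NVS4. The youngest pool was the lowest and the oldest pool the highest in both groups. The slope was 0.080 per day on the log2 scale (95% interval 0.034 to 0.125, adjusted p = 0.158 in limma), and adjusted p ranged from 0.0729 to 0.394 over its alternatives. Beside it on the chromosome, Or19 was at 579.6, 831 and 1510 in VSH1 to VSH3 and at 1314 in VSH4, and it was at 1003, 1253, 1343 and 1157 in NVS1 to NVS4. In both groups the third pool was the highest, so its values did not follow age throughout, and its slope was 0.067 per day (adjusted p = 0.322 in limma).

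Or5 and Or22 lie in the same tandem run. Or5 was at 262, 269.9, 367 and 404 in VSH1 to VSH4 and at 316, 361, 358 and 408 in NVS1 to NVS4, with a slope of 0.051 per day (95% interval 0.020 to 0.082, adjusted p = 0.189 in limma). Both groups met at the oldest ages, and the VSH pools were lower at the younger ones. Or22 was at 272, 289, 371 and 476 in VSH1 to VSH4 but stayed between 364 and 404 in the NVS libraries. Its slope over both groups was 0.047 per day (adjusted p = 0.286 in limma) and 0.024 without VSH4.

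**Figure D3:**
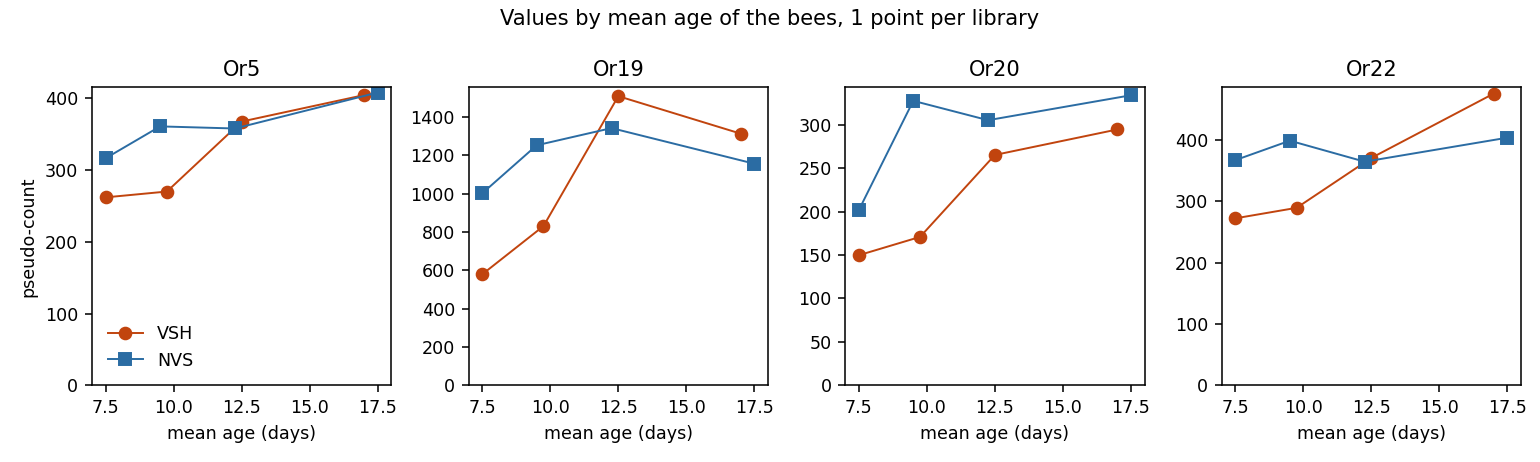
Pseudo-count of Or5, Or19, Or20 and Or22 against the mean age of the bees in days, with 1 point per library and lines joining the 4 VSH (circles) and the 4 NVS (squares) libraries. The youngest VSH pool has the lowest value of the VSH libraries in all 4 panels, at 262, 580, 149.7 and 272, and the slope within VSH bees is steeper than that within NVS bees in each panel (0.072 and 0.032 per day for Or5, 0.127 and 0.013 for Or19, 0.109 and 0.054 for Or20, 0.089 and 0.009 for Or22), a difference that did not pass the threshold for any member.

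The most negative slopes with a mean value of at least 10 and the smallest p were those of Or41 (-0.044 per day), Or1 (-0.023), Or170 (-0.021) and Or27 (-0.028), with adjusted p of 0.504, 0.513, 0.560 and 0.563 in limma. None of these intervals excluded 0. The co-receptor had a slope of 0.009 per day (adjusted p = 0.799 in limma), which became -0.012 without VSH4, the library with the highest Or2 value.

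Fitted within each group, slopes were positive for 39 of 50 members in VSH bees (median 0.015 per day) and for 23 of 50 in NVS bees (median -0.004). The share of all genes with a positive slope within each group was not obtained, so these counts have no background. The difference of the slopes was tested directly, and 0 members and 0 of all genes passed the threshold in limma. At an unadjusted p under 0.05 the slope was higher in VSH bees for 4 members (Or160, Or22, Or19 and Or57) and lower for 1 (Or26), where 1.20% and 1.67% of all genes were. This list was not stable. Without VSH4, 7 members were at that p (8.02% of all genes), 3 of them among these 5. Without NVS4, 5 members were (2.16% of all genes), but only 1 of them was among these. Or160 had the smallest p, with a slope of 0.076 per day in VSH and -0.008 in NVS bees (difference 0.084, 95% interval 0.030 to 0.139). It was at 488, 507, 650.5 and 779 in VSH1 to VSH4, while the NVS libraries lay between 606 and 732 in no order of age. Or22 followed (0.089 in VSH and 0.009 in NVS bees, difference 0.079), and adjusted p was 0.999 for both in limma. The difference was positive for 37 of 50 members and for 50.5% of all genes, with a median of 0.015 over the members that fell to -0.0003 without VSH4 and was 0.028 without VSH1 and 0.050 without NVS4.

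Foragers and nurses were compared to set receptor expression of bees at work outside the hive against that of bees tending brood. Forager values were higher on average for most of the family: 46 of 50 estimates were positive, against 50.1% of all genes, and their median was 0.29 on the log2 scale, against 0.0004 over all genes. No single member passed the threshold (limma, adjusted over 10436 genes), in a comparison where 0.0575% of all genes were higher and 0.0383% lower in foragers. At an unadjusted p under 0.05, 5 members were higher (Or4, Or35, Or22, Or106 and Or52) and 1 was lower (Or141), where 6.18% and 6.82% of all genes were. The median 95% interval of a member reached 0.59 to either side, a width set by 2 libraries against 3. In bulk RNA, fewer receptor neurons and less receptor RNA per neuron cannot be told apart.

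The summed value of the members was 51609 and 55941 in FOR2 and FOR3 and 51858, 37398 and 43994 in NUR1 to NUR3. NUR1 thus reached the level of FOR2, and NUR2 was the lowest. In NUR2, which also stood apart over all genes, 35 of the 50 members had their lowest value and only 3 were above their own mean over the 5 libraries, whereas 40 and 41 were above it in FOR2 and FOR3, 33 in NUR1 and 13 in NUR3. The difference was therefore not shared by all nurse pools. The shares of all genes at their lowest, or above their mean, in each library were not obtained. The median deviation in NUR2 was -0.35 for the members and -0.0002 for all genes.

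**Figure D4:**
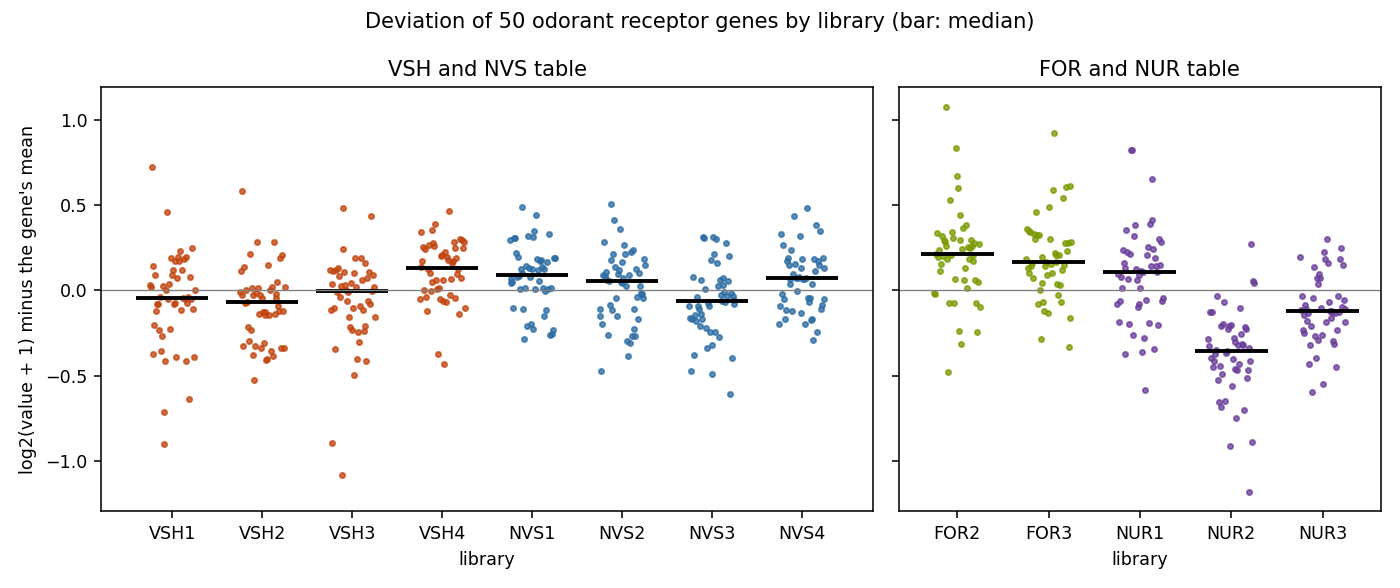
Log2(value + 1) of each of the 50 measured members minus the mean of that gene over its table, by library, with a bar at the median of the members. Medians lie between -0.07 and 0.13 in the VSH and NVS libraries, at 0.21 and 0.17 in FOR2 and FOR3, and at 0.11, -0.35 and -0.12 in NUR1, NUR2 and NUR3.

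Without NUR2, 41 of 50 estimates were positive (49.4% of all genes) and the median was 0.21. No member passed the threshold without it, where 0.441% of all genes were higher and 0.287% lower. Without NUR1 the median was 0.44, and 10 members had an unadjusted p under 0.05 (12.1% of all genes) instead of 6 (13% of all genes), while 2 had without FOR2 (7.05%). A block on the replicate number takes up NUR1 entirely, since no forager library has its number. Its fold changes equal those without NUR1, and whether a number marks the same hive is not stated. With that block, 15 members were higher and 1 lower at an unadjusted p under 0.05, where 7.75% and 7.73% of all genes were. Past the threshold there were 0 members, where 0.0383% and 0.0192% of all genes were. Both forager libraries were above all 3 nurse libraries for 17 members, 34.0% of the family, and below them for 1, where 16.1% and 16.5% of all genes were. Leaving out NUR2 can only add to the members above the nurse libraries, and their count stayed at 17, where 21.5% of all genes were then above. Markers of other cell types moved between these groups as well: the summed haemocyte markers were 1574 and 2134 in foragers and 2926 to 3471 in nurses, highest in NUR2. Muscle markers summed to 379 to 404 in foragers and 258 to 375 in nurses, fat body markers to 2717 to 2808 and 2255 to 3450, and glia markers to 18824 to 20970 and 17214 to 22894. The neuron list summed to 42344 to 53680 in foragers and 46502 to 50358 in nurses, with 4 of its 13 estimates positive and a median of -0.25, which was -0.10 without NUR2. The sums of 2 further lists were lower in foragers without overlap: the olfactory sensilla markers (Or2, Obp1, Obp2, CSP1 and CSP3) were at 1292870 and 1339610 in foragers and at 1359210 to 1481420 in nurses, and the photoreceptor markers at 84.1 and 112 in foragers and at 146 to 239.8 in nurses. Gene by gene they did not move one way: 3 of 5 sensilla estimates (median 0.04) and 2 of 3 tested photoreceptor estimates (median 0.25) were positive. Without NUR2, 1 haemocyte marker was past the threshold, lower in foragers. The part of these cells in the receptor values was not tested.

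Or4 had the smallest p of the family. It was at 1924 and 1938 in FOR2 and FOR3 and at 1461, 1160 and 1298 in NUR1 to NUR3. The forager pools agreed closely and lay above every nurse pool, with a log2 difference of 0.57 (95% interval 0.25 to 0.88, adjusted p = 0.186 in limma). Or35 was at 431 and 400.2 in foragers and at 288, 193 and 194 in nurses (log2 difference 0.91, 95% interval 0.31 to 1.51, adjusted p = 0.241 in limma). As for Or4, NUR1 was the nurse pool nearest to the foragers.

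Or22 was at 1050.4 and 834 in FOR2 and FOR3 and at 608, 694 and 554 in NUR1 to NUR3. Here NUR2 was the highest nurse pool, so the estimate of 0.60 (95% interval 0.19 to 1.02, adjusted p = 0.256 in limma) did not rest on that library. Or106 was at 201 and 244 in foragers and at 132, 143 and 143 in nurses (0.67, adjusted p = 0.343 in limma). Its 3 nurse values were nearly equal. Or52 had the largest estimate of the family (0.97, 95% interval 0.03 to 1.92, adjusted p = 0.368 in limma) from values of 133 and 214 in foragers and 74.8, 66.4 and 126 in nurses, of which FOR2 and NUR3 nearly met.

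Against the direction of the family, 4 members had negative estimates, namely Or141, Or19, Or20 and Or63. Or141 was at 393 and 369 in foragers and at 516, 561 and 515 in nurses (log2 difference -0.48, 95% interval -0.87 to -0.09, adjusted p = 0.321 in limma). It was the only member below all nurse pools, and its nurse values were highest in NUR2, where most members were lowest. The same gene had the smallest p between VSH and NVS bees, with the higher values in VSH bees. The tests of the comparisons are separate, and neither passed the threshold.

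The adjacent genes Or19 and Or20 had negative estimates that rested on 1 nurse pool. Or19 was at 391 and 546 in foragers and at 963, 388 and 598 in nurses, and Or20 at 147 and 127 in foragers and at 275, 135 and 129 in nurses. NUR1 was the highest library for both. The log2 differences were -0.39 for Or19 and -0.30 for Or20 (adjusted p = 0.704 and 0.787 in limma), and they became -0.06 and 0.05 without NUR1. Or63 had an estimate of -0.01, which ranged from -0.14 without NUR2 to 0.18 without NUR1.

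**Figure D5:**
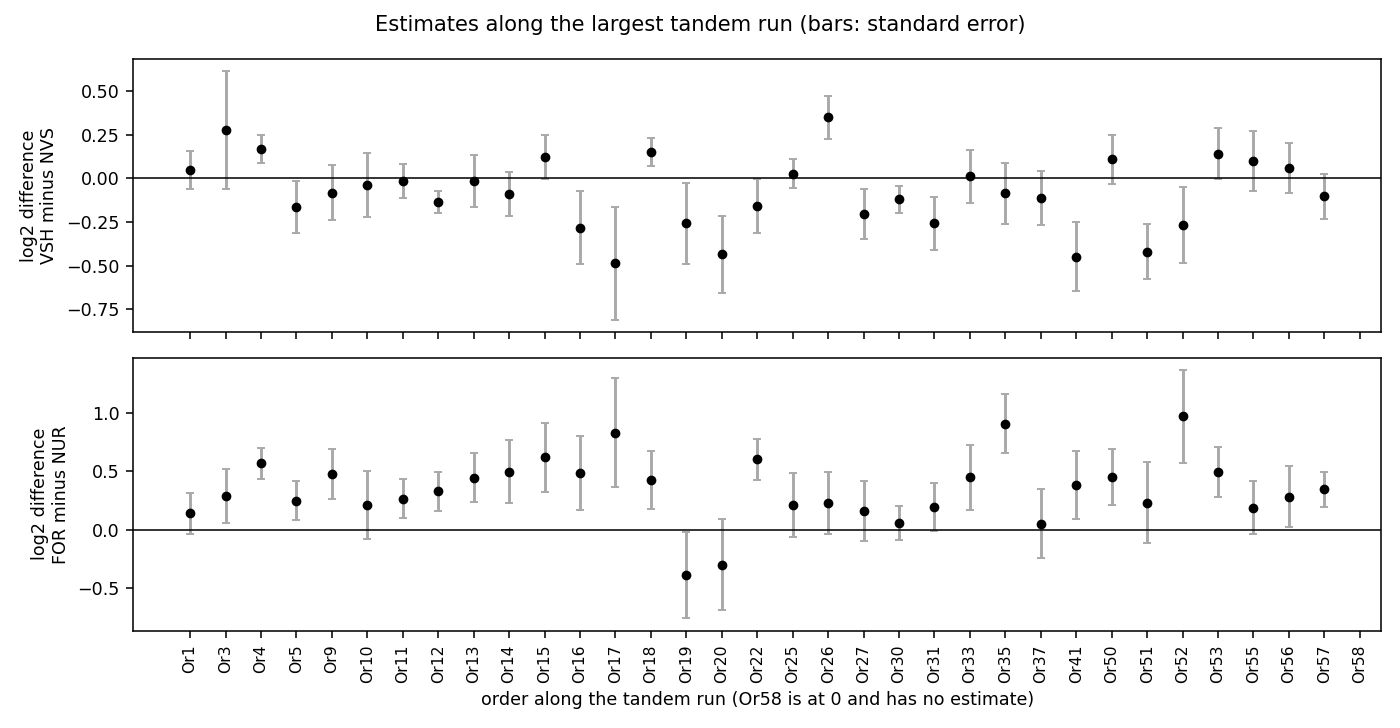
Log2 difference of each member of the largest tandem run, in the order of the genes along the chromosome, for VSH minus NVS (top) and FOR minus NUR (bottom), with bars of 1 standard error. In the lower panel Or19 (-0.39) and Or20 (-0.30) are the only members of the run below 0, between Or18 (0.43) and Or22 (0.60).

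Positive estimates were found both inside and outside the tandem run. Of the 33 measured members of the tandem run 31 were positive (median 0.33), and so were 15 of the 17 other members (median 0.28). These others include Or32, Or106 and Or143, whose place in the reference was not known. The 16 other genes that lie inside the run and were measured had 13 positive estimates and a median of 0.19. Among the other chemosensory genes, 11 of 16 odorant-binding proteins (median 0.24), 2 of 5 gustatory receptors (median -0.05) and 2 of 5 chemosensory proteins (median -1.25) were positive, with no gene of these lists past the threshold. Without NUR2 the odorant-binding proteins had 9 of 16 positive estimates (median 0.13), the other genes inside the run a median of 0.10, and 1 chemosensory protein was past the threshold, lower in foragers. Odorant-binding proteins are carriers in the sensillar fluid, gustatory receptors detect tastants, and chemosensory proteins are a further family of small secreted proteins.

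The co-receptor Or2 had an estimate of 0.28 in foragers (95% interval -0.12 to 0.69, adjusted p = 0.541 in limma). It was 18919 ± 3500 in foragers and 15527 ± 2271 in nurses, with overlapping groups. Its share of the summed member values was 35.1% ± 4.5 in foragers and 35.0% ± 0.59 in nurses (SD, n = 2 and 3). The members other than Or2 summed to 34856 ± 437 in foragers and 28890 ± 4968 in nurses. Or11 was at 1510.1 and 1517 in foragers and at 1518, 1047 and 1254 in nurses, an estimate of 0.27 (adjusted p = 0.568 in limma). NUR1 equalled the foragers for this receptor. The estimates of Or18 (0.43), Or10 (0.21) and Or170 (0.16) were positive as well, with overlapping groups and adjusted p of 0.526, 0.802 and 0.774 in limma, and that of Or170 became -0.04 without FOR3.

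How far the family as a whole differed depends on the scale used. When the columns were rescaled to equal totals or by quantiles, the median over the members was 0.27 and 0.30. When they were rescaled so that the members had the same geometric mean in every library, the median of the members was by construction near 0 (-0.03), and that of all genes was -0.32. Such rescaling moves all genes of a library together, so the difference between the members and all genes stayed at 0.29 by construction. Or2, Or11, Or10 and Or170 had negative estimates on that scale. That the values of the family were higher in foragers is thus a statement relative to the bulk of genes only, which the rescaling did not test. No outside standard fixes an absolute scale.

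One receptor gene outside the symbol rule was described for its known role. The tables list it as LOC100578724, and the reference annotation gives Or151 as its synonym, a receptor that in honey bees responds to floral odours such as linalool. It was at 5049, 5960, 7329 and 6731 in VSH1 to VSH4 and at 6138, 7294, 6481 and 7560 in NVS1 to NVS4, above every member but Or2 as deposited. Groups overlapped (log2 difference -0.14, adjusted p = 0.649 in limma), and the slope on age was 0.032 per day (adjusted p = 0.293 in limma). In foragers it was at 6435 and 5482 and in nurses at 7997, 9462 and 8516. Both forager pools were thus below all nurse pools, against the direction of most members (-0.54, adjusted p = 0.173 in limma), and NUR2 was the highest library. The gene named Or152 was not analysed here.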

How the data were processed

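RNA from antennal flagella was sequenced in 13 libraries, each pooled from 4 pairs of antennae per the labels or 8 per the study's methods. Per the labels and the study's methods, the authors used CASAVA 1.8.2, FastQC, TopHat2 with Bowtie2 2.2.3 (genome assembly 4.5) and HTSeq 0.6.1p1, then normalised counts by Relative Log Expression in edgeR 3.4.0, separately for each table. The deposited unit is a signal, a pseudo-count that is not whole (0% of values above 0 at a tolerance of 1e-06), so count tests could not be run, and depth per library is not shown by the values. Values below 1e-10 were set to 0. Log2(value + 1) was fitted with limma 3.58.1 (lmFit, eBayes with trend, two-sided) in R 4.3.3, for genes with a sum of at least 20 (VSH and NVS) or 15 (FOR and NUR), with Benjamini-Hochberg adjustment over all of them and a threshold of 0.05. Differences are on this scale, which understates changes of low genes. The script was tested on simulated data.

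Named genes are Or2 and members of known role, the 10 highest members, and, as none was called, the 4 members with the smallest p each way (2 for the difference of slopes) at a mean of at least 10, plus members at 0. Others named, such as Or52, Or109, Or143, Or57, Or3, Or160 in the order, the pairs of neighbours and the members named with the replicate block, were picked for their values. The members and lists were chosen with earlier results of these data known. Coding lengths were planned for the order of levels, but no protein table was used, so the order is that of deposited values, and the identity of similar copies was not examined. Gene order, synonyms and gene spans came from the RefSeq table of assembly Amel_HAv3.1, which matched 50 of 53 members by gene ID (34 with the same symbol), and no coordinates are given. No receptor gene could be listed by its description, and the ionotropic receptor list matched 0 genes.

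Replicate numbers pair VSH and NVS libraries by age: across the 8133 genes of mean 50 or more, deviations from the group mean correlated at 0.161, 0.215, 0.276 and 0.388 in pairs 1 to 4, and among the 50 members at 0.42, -0.14, 0.30 and 0.18. FOR and NUR share only the numbers 2 and 3 and were not paired in the main fit. Alternatives were other pseudocounts (0.5, 4), filters, scalings, no trend, each library left out, the replicate block, age as a covariate or alone and, added after seeing the data, rescaling by the geometric mean of the members.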

Additional observations from a re-analysis of the deposited data

Results flagged for a closer look

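Over the 100 groups of 4 values tested (50 members in VSH and in NVS libraries), 1 had a library far from the others: Or53 in VSH3 was at 190.1, with 259, 249.9 and 256 in VSH1, VSH2 and VSH4. Chance alone flags about 1 in 20 such groups.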

How the results depend on the processing

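In no alternative did a member pass the threshold in any of the comparisons. The count over all genes tested moved more. Between VSH and NVS bees (4 genes) it was 0 without a trend, 127 with the replicate block and 9 after rescaling by the geometric mean of the members (6 higher and 3 lower, against 4 and 0), and 0 to 11 when 1 library was left out. For the age slope (15 genes) it was 0 with no filter, 0 without a trend and 30 after rescaling (14 rising and 16 falling, against 11 and 4), and 0 to 61 with 1 library left out. Between foragers and nurses (10 genes) it was 4 with a pseudocount of 0.5, 4 with a minimum mean of 10, 1 without a trend, 6 with the replicate block and 114 after rescaling (30 higher and 84 lower, against 6 and 4), and 0 to 76 with 1 library left out. Rescaling by the members shifts the estimates of all genes together by construction. Their median between foragers and nurses went from 0.0004 to -0.32 with it. The cause of the other changes in these counts was not tested. With the block, whose fold changes equal those without NUR1, 48 members had positive estimates, the median was 0.44 and 16 members were at an unadjusted p under 0.05. The block changed no call of a member. Signs of single estimates changed in some settings. Between VSH and NVS bees these were Or11 with quantile scaling (0.010) and, after rescaling by the members, Or11 (0.030) and Or10 (0.0054). Between foragers and nurses they were Or63 with quantile scaling (0.016), Or20 (0.050) and Or63 (0.18) with the block and, after rescaling, Or2 (-0.043), Or11 (-0.059), Or10 (-0.11) and Or170 (-0.17). With 1 library left out, ranges crossed 0 for Or11 (-0.079 to 0.054) and Or10 (-0.13 to 0.067) between VSH and NVS bees, for the slope of Or2 (-0.012 to 0.021), and for Or63 (-0.14 to 0.18), Or170 (-0.035 to 0.35) and Or20 (-0.49 to 0.050) between foragers and nurses. Where a group was left with 1 library, that library was assumed to vary like the other group. Depth per library was not known, so no counting error is given. With 2 and 3 libraries, the 95% interval of the median member reached 0.59 to either side on the log2 scale.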
